A study of Mus musculus with 4 samples.

Results

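The genes described here are 10 transcription factor genes of the embryonic mesoderm, the T-box genes Tbx1, Tbx2, Tbx3, Tbx4, Tbx5, Tbx15, Tbx18 and Tbx20 and the GATA genes Gata4 and Gata6. They were chosen by name: every non-control probe whose gene name in the array files equals 1 of these 10 symbols was taken, which gave 12 of 39429 probes and 10 of 31829 gene names. Tbx20 had 3 probes and each other gene had 1.

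Total RNA came from cultured mouse embryonic fibroblasts (MEFs), growing logarithmically, of C57BL/6J background. There were 4 preparations with 1 single-color Agilent array each: MEFs lacking CycG2 (CycG2-/-, labelled G2KO), CycG2+/+ MEFs as their WT, MEFs lacking both CycG1 and CycG2 (CycG1-/-CycG2-/-, DKO), and CycG1+/+CycG2+/+ MEFs as the WT of DKO. CycG1 and CycG2 are the cyclins encoded by Ccng1 and Ccng2, and the study asked how their loss alters the response of cells to DNA damage. The CycG1 allele is a null that lacks the whole coding region and carries a drug resistance marker in its place, and DKO combines it with the CycG2 knockout. MEFs were made from mid-gestation embryos, they were untreated, and each group was 1 preparation on 1 array. No ratio below therefore has a replicate check, no test between genotypes was run, and genotype and preparation cannot be told apart.

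T-box factors bind DNA through a shared domain named after Brachyury, some as activators (Tbx1, Tbx4, Tbx5) and some mainly as repressors (Tbx2, Tbx3, Tbx15, Tbx18), while Gata4 and Gata6 are zinc finger factors that bind GATA motifs. Tbx5, Tbx20, Gata4 and Gata6 work together in the developing heart. Tbx5 and Tbx4 mark the forelimb and hindlimb fields, Tbx15 and Tbx18 pattern limb and trunk mesenchyme, and Gata4 and Gata6 are also expressed in the mesothelium and its mesenchyme and in visceral endoderm.

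Levels are given as the signal of a probe divided by the 75th percentile of its array, which makes arrays comparable for the same probe and not 1 probe with another. The scanner software flags whether a probe is well above background, and a probe without that flag is called dim here. Where a probe was dim on 1 of the arrays compared, its signal there was raised to the dimmest flagged signal of the array if it was lower, and the ratio is given as a limit. A gene was called higher or lower when it differed at least 4-fold. The error of a single signal is that of the scanner software, which covers the spot and not the culture.

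The arrays had a 75th percentile between 1586 and 2234 signal units, between 64.9% and 72.1% of probes well above background, and a median SD of 0.0578 to 0.0911 (log2) over repeated spots of a probe. Over 24192 probes, the log2 ratios had an SD of 1.01 between the arrays labelled WT, 1.02 for DKO against its WT, 0.859 for the array labelled G2KO against its WT and 0.535 for the array labelled G2KO against the WT of DKO. Ccng1, deleted in DKO, was dim there and at least 228-fold lower than in its WT. The Ccng2 probe was well above background on all 4 arrays, with log2 ratios of -0.38 in DKO and -0.19 on the array labelled G2KO, so it does not check the labels, and whether it lies in the deleted part is not given in the sources used here. Xist, the RNA of the inactive X chromosome, was well above background only on the array labelled WT of G2KO. The study attributes the raised Xist of its G2KO MEFs to their female origin. Sex therefore cannot be told apart from genotype or preparation where that array is compared. Xist and Foxa2, which the study describes as raised in G2KO MEFs, ran the other way between the arrays with these labels, so every direction of that comparison rests on the labels and turns if they are exchanged. The array labelled G2KO and the WT of DKO would then be the WT pair. The study's methods describe dye-swapped arrays for G2KO MEFs, whereas the labels of these files describe single-color ones, so the files may hold another hybridisation than the one the study describes. Of 14 fibroblast markers, all 14 were well above background on 3 arrays and 12 on the array labelled WT of G2KO, where Pdgfra and Lum were dim.

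The probes that carried the main differences are shown by their first 30 of 60 bases, as the array files give them. The probes start at base 3227 of the RefSeq transcript for Gata4, 2800 for Tbx5 and 3502 for Tbx2. The mm9 positions are also as the array files give them. The Gata4 probe lies at chr14:63817858-63817917 on the minus strand, the Tbx5 probe at chr5:120334087-120334146 and the Tbx2 probe at chr11:85655391-85655450, both on the plus strand.

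Gata4 probe: tagcttcgaaccaagattctgttgtaatca

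Tbx5 probe: aaatacctacctccgtcatgtgagatgtct

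Tbx2 probe: tttttgctccagagggagaacgaagcgaga

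In DKO against its WT, 9 of the 10 genes could be compared, and 4 were higher and 1 lower. Gata4, Gata6, Tbx5 and Tbx2 were the higher ones and Tbx20 the lower one. Of these, Gata4 and Tbx20 were measured on both arrays, and the calls of Gata6, Tbx5 and Tbx2 are limits from genes that entered through DKO alone. With genes well above background on both arrays 2 of 5 were called, and the share over all genes under that filter was not computed. Over all 22883 genes compared, which include such limits, 4.05% were called higher and 4.02% lower. At 10-fold, 4 of the 9 genes compared were higher, against 1.65% of all genes compared, and 0 lower, against 1.84%. The median log2 ratio of the 9 genes was 0.39, against 0.03 over all genes, since Tbx3, Tbx15 and Tbx18 lay near 0. Tbx4 was dim on both arrays.

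Gata4, a factor required for heart morphogenesis, had levels of 0.0147 ± 0.00198 on the array labelled G2KO, 0.0150 ± 0.00206 on its WT, 5.04 ± 0.504 in DKO and 0.0140 ± 0.00247 on the WT of DKO. The 3 arrays other than DKO thus lay within their signal error of each other and just above the dimmest signals that the software separates from background. Gata4 was 361-fold higher in DKO than in its WT, a log2 ratio of 8.50.

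Gata6, the paralog that shares many of the roles of Gata4, had levels of 0.0110 ± 0.00188 on the array labelled G2KO, 0.187 ± 0.0188 on its WT and 4.90 ± 0.490 in DKO. On the WT of DKO it was dim, with 0.00542 ± 0.00236. It was at least 478-fold higher in DKO than in its WT. Unlike Gata4, Gata6 also differed between the other arrays. It was 17.1-fold lower on the array labelled G2KO than on the array labelled WT of G2KO, and the log2 ratio between the WT arrays was at most -4.19. Against the array labelled WT of G2KO, DKO was 26.2-fold higher in Gata6 and 337-fold higher in Gata4.

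Tbx5, the forelimb and heart factor, was well above background in DKO alone, with a level of 0.485 ± 0.0485. The other levels were 0.00234 on the array labelled G2KO, 0.00422 on its WT and 0.00285 on the WT of DKO. Tbx5 was at least 47.3-fold higher in DKO than in its WT. Tbx2, a repressor in the heart and limb, was also well above background in DKO alone, with 0.122 ± 0.0124 there. It had 0.00155, 0.00507 and 0.00247 on the array labelled G2KO, its WT and the WT of DKO, each of which was dim. Its log2 ratio in DKO against its WT was at least 3.58. With normexp background correction, which adds an offset of 50 signal units to dim and bright signals alike, the log2 ratios in DKO were 1.88 for Tbx2, which is not past 4-fold, 3.38 for Tbx5, 6.78 for Gata4 and 6.87 for Gata6.

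**Figure D1:**
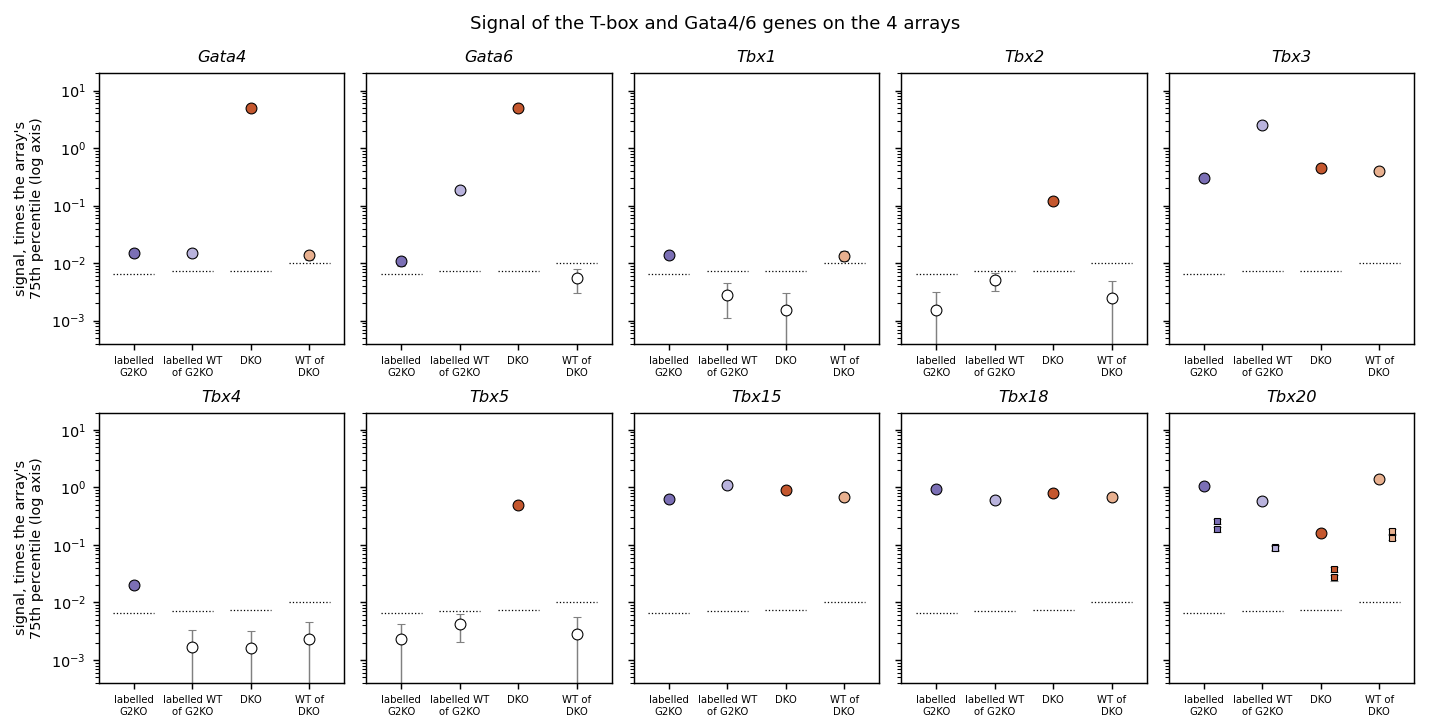
Signal of each gene on the 4 arrays, in times the 75th percentile of the array on a log axis, with 1 panel per gene. Circles are the probe used for the gene and small squares the other probes of Tbx20. Filled marks were well above background and open marks were not, bars are the software's signal error (cut by the axis or hidden by the mark), and dotted lines are the lowest signal well above background on each array. Gata4, Gata6, Tbx2 and Tbx5 are highest in DKO, Tbx3 is highest on the array labelled WT of G2KO, and Tbx15 and Tbx18 stay close together on all 4 arrays.

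Tbx20, which acts in cardiac chamber and valve formation, was the only one of the 10 genes called lower in DKO. The probe used for it had levels of 1.08 ± 0.108 on the array labelled G2KO, 0.584 ± 0.0585 on its WT, 0.159 ± 0.0159 in DKO and 1.40 ± 0.140 on the WT of DKO. DKO was the lowest of the 4 arrays at each of the 3 probes. Against its WT, DKO was 8.84-fold lower at this probe and 4.55-fold and 4.89-fold lower at the other probes, so the size depends on the probe and the call does not. The array labelled WT of G2KO lay between DKO and the other arrays at each probe, and against it DKO was 3.69-fold lower, which is not past 4-fold. The files place this probe at chr9:24527750-24527809 and the others at chr9:24544715-24544774 and chr9:24563177-24563236, all on the minus strand of mm9, the first in a different RefSeq transcript from the other two.

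Tbx20 probe used: gtagttggtttccagacaaaatacagatgt

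Tbx20 second probe: ggggacctttgaagaactgatgtgaaagaa

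Tbx20 last probe: agaattcaggacgttcatctttccagagac

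Tbx20 was also the only gene called in DKO among the RefSeq promoter entries used here (assembly GRCm38.p6), which covered 4 of the 10 genes. Entries on the chromosome of Gata6 were left out, so whether RefSeq gives a Gata6 promoter was not examined. The 250 bases before the Tbx20 start lie at chr9:24774304-24774553 of that assembly on the minus strand. They are shown because they are the regulatory sequence of the gene that was lower, with GC boxes (GGGCGG on either strand) in capitals.

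Tbx20 upstream: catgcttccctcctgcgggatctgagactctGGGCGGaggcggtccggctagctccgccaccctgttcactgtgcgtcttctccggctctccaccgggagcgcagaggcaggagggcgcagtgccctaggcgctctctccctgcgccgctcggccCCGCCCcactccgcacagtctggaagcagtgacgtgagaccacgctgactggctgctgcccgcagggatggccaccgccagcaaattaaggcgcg

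These letters hold 2 GC boxes, beginning at positions -219 and -95 from the start. With 50 bases after the start included, 3 of the 5 entries of the 4 genes held a GC box, against 35.7% of the 32851 promoters of the same length. None of the 5 held the GATA motifs AGATAA or TGATAA or the T-box motif GGTGTGA on either strand, which 11.2%, 9.05% and 3.98% of all promoters held. A match is a description of the letters and not of binding.

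The remaining T-box genes did not pass 4-fold in DKO. Tbx3, a repressor close in sequence to Tbx2, had levels of 0.304 ± 0.0305 on the array labelled G2KO, 2.56 ± 0.256 on its WT, 0.442 ± 0.0443 in DKO and 0.398 ± 0.0399 on the WT of DKO. The array labelled WT of G2KO stood above the other 3, which lay within 2 signal errors of their neighbours. Tbx3 was 1.11-fold higher in DKO than in its WT, 8.43-fold lower on the array labelled G2KO than on its WT, and 6.43-fold lower on the WT of DKO than on the array labelled WT of G2KO.

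Tbx15, which patterns skeletal and dermal mesenchyme, ranged from 0.626 on the array labelled G2KO to 1.09 on its WT, with 0.898 in DKO and 0.687 on the WT of DKO. Tbx18, a marker of epicardium and of somite and limb mesenchyme, ranged from 0.592 on the array labelled WT of G2KO to 0.925 on that labelled G2KO, with 0.787 in DKO and 0.680 on the WT of DKO. Neighbours in either order differed by less than 2 signal errors. The log2 ratios in DKO were 0.39 for Tbx15 and 0.21 for Tbx18.

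Tbx1, needed for the pharyngeal arches, was near background everywhere. Its level was 0.0137 ± 0.00201 on the array labelled G2KO and 0.0135 ± 0.00259 on the WT of DKO, and it was dim in DKO (0.00155) or on the array labelled WT of G2KO (0.00279). DKO was at least 1.85-fold lower than its WT. Tbx4, the hindlimb factor, was well above background only on the array labelled G2KO, at 0.0201 ± 0.00324, and there at least 2.81-fold higher than on its WT. At these signals neither gene could be shown to differ 4-fold.

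Tbx2 and Tbx4 lie side by side in the mouse genome, as do Tbx3 and Tbx5, an arrangement inherited from an old duplication of a T-box gene pair. The probes of Tbx2 and Tbx4 were 74.1 kb apart on chromosome 11 and those of Tbx3 and Tbx5 199.6 kb apart on chromosome 5. In each pair 1 gene was higher in DKO and its neighbour was not: Tbx2 was higher while Tbx4 was dim, and Tbx5 was higher while Tbx3 differed 1.11-fold.

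Among 7 genes compared within 400 kb of the Tbx2 probe, 0 passed 4-fold in DKO, with log2 ratios from -0.35 to 0.88. Among 3 around Tbx5, 0 passed, with log2 ratios from -0.60 to 0.15. These were Tbx3 again (0.15), Rbm19 at 314.7 kb (-0.60) and AW549542, a limit of at least 0.01 near background. Around Gata4, 2 of 15 passed: Neil2, a DNA glycosylase gene 16.6 kb from the Gata4 probe, was at least 5.27-fold higher, with 0.0540 in DKO and 0.00261 on its WT, and an Ensembl transcript without a symbol 163.1 kb away was 5.91-fold lower. Around Gata6, 1 of 6 passed. It was 1010001N08Rik, named Gata6os in RefSeq, a long non-coding RNA on the strand opposite to Gata6 with its probe 36.0 kb away. Its level was 0.0194 on the array labelled G2KO, 0.0326 on its WT, 0.241 in DKO and 0.0177 on the WT of DKO, 13.6-fold higher in DKO than in its WT. Over all 22883 genes compared, 8.08% passed 4-fold in DKO in either direction. Counts of flanking genes this small cannot be told from that share.

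**Figure D2:**
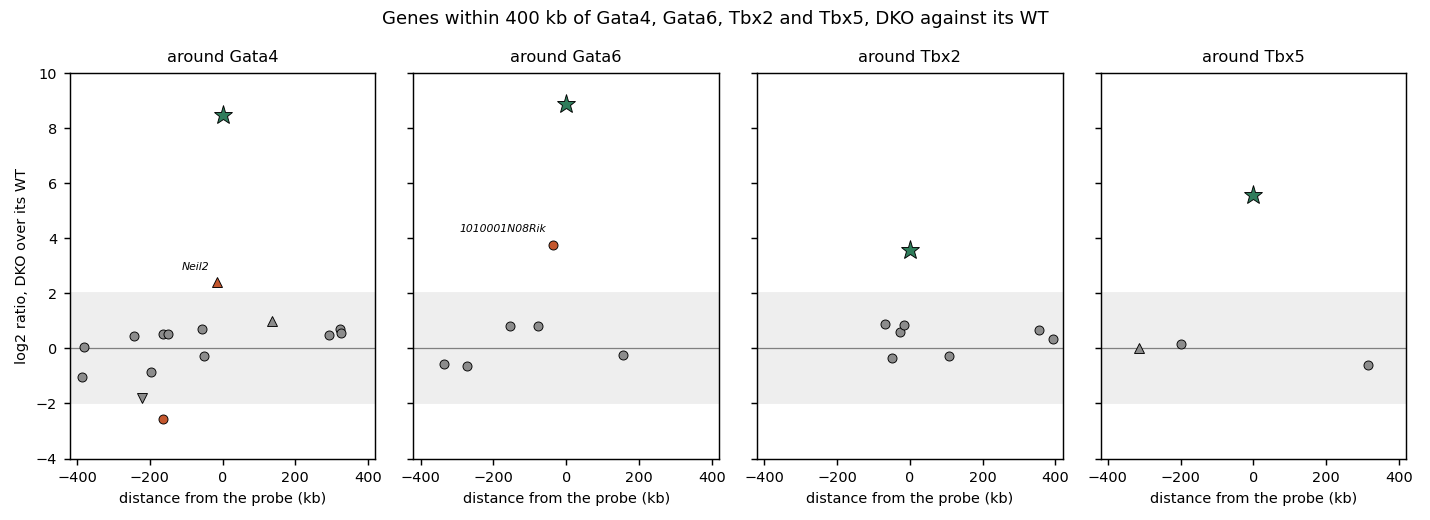
Log2 ratio of DKO over its WT (vertical axis) for genes within 400 kb of the probes of Gata4, Gata6, Tbx2 and Tbx5, against the distance from that probe in kb (horizontal axis). Stars are the named gene itself (limits for Gata6, Tbx2 and Tbx5), circles are ratios measured on both arrays, triangles are limits, colored marks passed 4-fold, and the grey band is less than 4-fold. Most flanking genes lie inside the band, with Neil2 at 2.40 and 1010001N08Rik at 3.76 above it.

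On the array labelled G2KO against its WT, 8 of the 10 genes could be compared, and 0 were higher and 2 lower, Gata6 and Tbx3. Over all 22782 genes compared, 3.71% were higher and 2.02% lower. At 10-fold 1 was lower, Gata6, against 0.615% of all genes. The median log2 ratio of the 8 genes was 0.31, against -0.17 over all genes. Tbx20 was 1.85-fold higher at the probe used and 2.79-fold and 2.15-fold higher at the others, Tbx18 had a log2 ratio of 0.64, Tbx15 of -0.80 and Gata4 of -0.02. Tbx2 and Tbx5 were dim on both arrays.

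The arrays labelled WT differed from each other in Gata6 and Tbx3 as well, a comparison of WT with WT only if the labels of the G2KO pair hold. In the WT of DKO against the WT of G2KO, 7 genes could be compared, and 0 were higher and 2 lower, against 4.63% and 2.76% of all 22135 genes compared. At 10-fold 1 was lower, Gata6, against 0.691%. This comparison shares the array labelled WT of G2KO with the one before. Against the WT of DKO in place of its own WT, the array labelled G2KO had 0 of 8 genes past 4-fold, against 2.3% of 21408 genes. Its log2 ratios there were 0.02 for Tbx1, -0.39 for Tbx3, 0.08 for Gata4 and at least 0.10 for Gata6. The Tbx20 probes differed in sign, with -0.38 at the probe used and 0.58 and 0.51 at the others. Thus both calls for the array labelled G2KO rest on its own WT array.

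**Figure D3:**
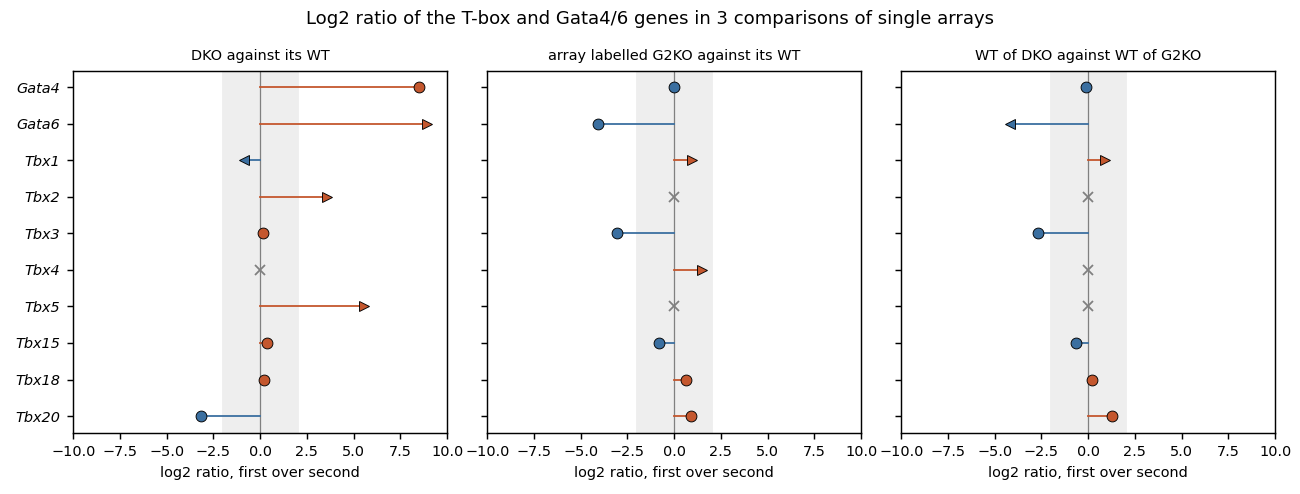
Log2 ratio of each gene in DKO against its WT (left), the array labelled G2KO against its WT (middle) and the WT of DKO against the WT of G2KO (right). Circles are ratios measured on both arrays, triangles are limits, crosses are genes dim on both arrays, and the grey band is less than 4-fold. Gata4, Tbx2 and Tbx5 leave the band only in DKO, while Gata6 leaves it in all 3 comparisons and Tbx3 in those with the array labelled WT of G2KO.

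For Gata4 and Gata6, the genes with the most alike levels over the 4 arrays were sought among 24466 genes, by the root mean square difference of log2 levels centred on their own mean, with dim signals raised to the dimmest flagged signal of the array. Hoxb9 (0.27), Hoxb4 (0.28) and Scel (0.29) were most like Gata4. Each was well above background in DKO alone, so these distances rest on raised signals on the other 3 arrays, with Hoxb9 at 2.68, Hoxb4 at 3.06 and Scel at 3.19. Ces5 (0.26), 2200002D01Rik (0.28) and Mcpt8 (0.68) were most like Gata6, with an intermediate level on the array labelled WT of G2KO (0.155, 0.150 and 0.152) and their highest level in DKO. Over 4 arrays many genes can share such an order.

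Of 9 other T-box genes on the array, 5 could be compared in DKO, and 0 were higher and 1 lower, with a median log2 ratio of -0.08. The lower one was Eomes, a factor of early mesoderm and endoderm. Its level was 0.183 on the array labelled G2KO, 0.0954 on its WT, 0.0153 in DKO and 0.211 on the WT of DKO, 13.7-fold lower in DKO than in its WT. Like each Tbx20 probe, Eomes was lowest in DKO and next lowest on the array labelled WT of G2KO. Mga, which joins a T-box to a Max-binding domain, had a log2 ratio of -1.15, Tbx22 of 1.06, Tbx6 of 0.49 and Tbx10 of -0.08. Tbr1 was well above background only on the array labelled G2KO, and T, Tbx19 and Tbx21 on none. For this list and those below, the shares over all genes in DKO were 4.05% higher and 4.02% lower.

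Of 7 other GATA factors and cofactors, 6 could be compared in DKO and 0 passed 4-fold, with a median log2 ratio of 0.31. Zfpm2, the FOG cofactor that binds Gata4 in the heart, was nearest, with levels of 0.521 on the array labelled G2KO, 0.449 on its WT, 2.48 in DKO and 0.651 on the WT of DKO and a log2 ratio of 1.93. Zfpm1 had 0.98, Gata2 0.52, Trps1 0.11, Gata5 -0.21 and Gata3 -1.49 on the log2 scale, and Gata1 was well above background on no array.

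Among 12 transcription factors that act with these genes in the heart, 10 could be compared in DKO, 1 was higher and 1 lower, and the median log2 ratio was -0.05. Hand2, a basic helix-loop-helix factor of heart and limb, had 0.505 in DKO, 0.0150 on its WT, 0.0117 on the array labelled WT of G2KO and was dim on that labelled G2KO, for a log2 ratio of 5.07. Mef2c, a cofactor of Gata4, was the lower one, with 0.0110 in DKO, 0.0904 on its WT and a log2 ratio of -3.04. Nkx2-5, the partner of Tbx5 and Gata4 in cardiomyocytes, was near background on all 4 arrays, between 0.0145 and 0.0158, and Isl1 and Hand1 were well above background on none.

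Among 16 lateral plate and limb regulators on the array, 14 could be compared in DKO, 1 was higher and 3 lower, and the median log2 ratio was -1.11. Foxf1a, a splanchnic mesoderm factor, was the higher one, with 0.149 in DKO and 0.0924 on the array labelled WT of G2KO, and dim elsewhere. Gata6 was highest on these arrays too, and a link between Gata6 and Foxf1a was not tested. Shox2, a limb and sinus node factor, was lower, with a log2 ratio of at most -6.01. Fgf10, the limb bud growth factor downstream of Tbx5, was lower too, with 0.239 in DKO, 2.50 on its WT, 1.56 on the array labelled G2KO and 0.0672 on its WT. Fgf10 was thus lower in DKO, where Tbx5 was higher, and lower still on the array labelled WT of G2KO, where Tbx5 was dim. The part of Tbx5 in these Fgf10 values was not tested.

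Of 13 known targets of T-box factors, all 13 could be compared in DKO, 2 were higher and 3 lower, and the median log2 ratio was 0.29. Cdkn1a and Cdkn2a, the cell cycle inhibitor genes that Tbx2 and Tbx3 are known to repress, moved apart. Cdkn1a had levels of 0.644 on the array labelled G2KO, 8.20 on its WT, 5.00 in DKO and 0.572 on the WT of DKO. Cdkn2a had levels of 24.3, 0.0157, 5.09 and 23.3 in the same order of arrays. In DKO, where Tbx2 was higher, Cdkn1a was higher, with a log2 ratio of 3.13, and Cdkn2a lower, with -2.19. On the array labelled WT of G2KO, where Tbx3 was highest, Cdkn1a was highest and Cdkn2a near background. Cdkn1a and Cdkn2a have 2 probes each, and only the probe used is given. Cdh1, another gene that Tbx2 and Tbx3 are known to repress, was higher in DKO, with a log2 ratio of at least 4.59. Fgf10 was also lower, and Nppa and Gja1, cardiac targets, had log2 ratios of 0.43 and 0.42. Whether T-box factors acted on these genes was not tested, and preparations cannot be told apart from it.

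Of 15 known targets of Gata4 and Gata6 on the array, 10 could be compared in DKO, 1 was higher and 1 lower, with a median log2 ratio of 0.32. Foxa2, an endoderm and floor plate factor, was the higher one. Its levels were 3.58 in DKO and 2.46 on the array labelled WT of G2KO, it was dim elsewhere, and its log2 ratio in DKO was at least 8.45. Gata6 was also highest on these 2 arrays, but at 4.90 in DKO and 0.187 on the array labelled WT of G2KO. Whether Gata4 or Gata6 acted on Foxa2 was not tested. Bmp4 was the lower one, with a log2 ratio of -2.07, while Dab2 had 0.30 and Lama1 1.48, and Sox7, Sox17 and Ihh were well above background on no array.

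**Figure D4:**
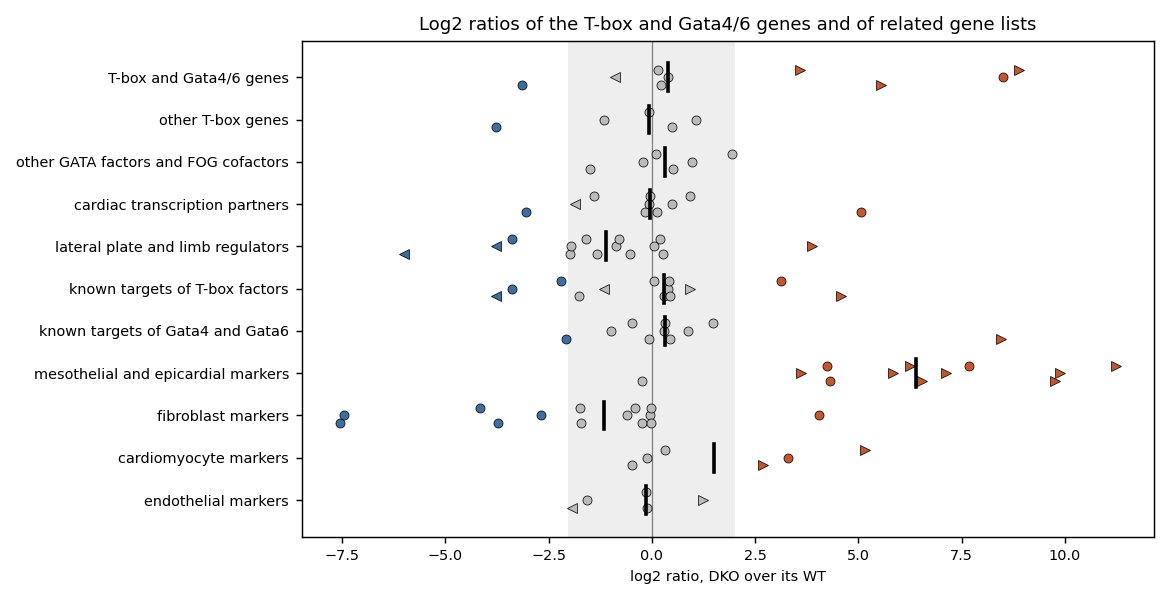
Log2 ratio of DKO over its WT for the T-box and Gata4/6 genes and for the genes of 10 lists, 1 mark per gene. Circles are ratios measured on both arrays, triangles are limits, orange and blue marks passed 4-fold, the black bar is the median of the list, and the grey band is less than 4-fold. The mesothelial and epicardial markers lie to the right with a median of 6.40, while the T-box and GATA relatives lie mostly inside the band.

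Lists of cell type markers were compared too, and they did not all differ in DKO. Of 12 mesothelial and epicardial markers, all 12 were well above background in DKO, against 6 on the array labelled G2KO, 5 on its WT and 4 on the WT of DKO. Their summed level was 150.2 in DKO and between 0.689 and 1.60 on the other arrays. Most of the sum in DKO came from the bright probes of Msln (100.2) and Krt18 (24.65). Since levels do not compare 1 probe with another, a sum describes such probes more than the list. In DKO against its WT 11 of the 12 were higher and 0 lower, with a median log2 ratio of 6.40. Only 4 of the 12 were measured on both arrays. The calls of the others, and so the median, rest on limits from genes that entered through DKO alone. Of the 4 measured, Msln, Krt19 and Bnc1 were higher, with log2 ratios of 7.67, 4.32 and 4.23, and Aldh1a2 was not called. Wt1, the defining factor of this layer, had 8.96 in DKO and was dim on the other 3 arrays, which is the pattern of Tbx5 and Tbx2, and Msln had 100.2 in DKO and between 0.492 and 1.52 elsewhere. Aldh1a2, another gene of the list, had a log2 ratio of -0.24. On the array labelled G2KO against its WT, 3 of 7 compared were higher and 0 lower, against 3.71% and 2.02% of all genes. They were Krt19 (18.2-fold), Bnc1 (at least 9.18-fold) and Krt18 (at least 4.73-fold). In the WT of DKO against the WT of G2KO, 1 of 5 was higher, Bnc1 (at least 10.9-fold), against 4.63% of all genes. In bulk RNA, more cells of a type and more RNA per cell cannot be told apart, and the part of these markers in the Gata4, Gata6, Tbx5 and Tbx2 values was not tested.

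Of 14 fibroblast markers, 1 was higher in DKO and 5 lower, with a median log2 ratio of -1.16. Col1a1, Col1a2, Vim and Fn1 had log2 ratios between -0.25 and -0.03, whereas Postn had -7.54, Pdgfra -7.46, Thy1 -4.17 and Dcn 4.05. The summed level of the list was 415.5 in DKO, 408.3 on the array labelled WT of G2KO, 532.4 on that labelled G2KO and 617 on the WT of DKO. Most of the sum in DKO came from the bright probes of Col1a2 (142.4), Fn1 (87) and Vim (60.55). The part of these markers in the Tbx20 values was not tested.

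Of 9 cardiomyocyte markers, 6 could be compared in DKO and 3 were higher, with a median log2 ratio of 1.51. They were Tnnt2, Tnni1 and Myl7, with log2 ratios of 3.30, at least 5.15 and at least 2.69, while Ryr2 and Pln were well above background on no array and Myh6 and Myh7 had log2 ratios of 0.33 and -0.49. Tnnt2 was also high on the array labelled WT of G2KO, with 1.88 there, 2.01 in DKO, 0.419 on the array labelled G2KO and 0.204 on the WT of DKO. Of 8 endothelial markers 0 of 5 compared passed 4-fold in DKO, and of 6 macrophage and leukocyte markers on the array 0 of 5 did. The 5 skeletal muscle and 7 endoderm epithelial markers could not be compared in DKO, because none was well above background there or on its WT.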

How the data were processed

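Cy3-labelled RNA of 4 MEF preparations was hybridised to 4 single-color Agilent mouse arrays. The authors deposited the spot intensities of Agilent Feature Extraction (the file headers name 10.7.3.1 and the submitters' processing notes 10.5.1.1), already corrected for background. The deposited table of values holds the same intensities, with a largest log2 difference of 0.

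Control spots and outlier spots (107 to 140 per array) were left out, spots of a probe were averaged on the log2 scale, and each array was scaled to its 75th percentile. A gene was represented by its probe with the highest mean log2 signal. The named genes were the 10 genes, Ccng1, Ccng2 and Xist, up to 4 genes per list and comparison with the largest ratios, all other T-box and GATA genes well above background on at least 1 array, and the 3 genes most alike Gata4 and Gata6. The genes and lists were chosen with earlier results of these data known. Genes named outside that rule, such as the near-0 examples in the lists and the flanking genes, were chosen after their values were seen. The values of 1 listed gene are not reported here. The ratio calculation was tested on simulated data with changes only in probes well above background on every array. The limits for dim signals were not tested there. Alternatives were the background correction (normexp, offset 50), normalization (quantile, median, none, deposited table), filter on dim probes, probe choice, outlier spots, threshold and WT array. Python 3.11.15, numpy 2.4.6, pandas 2.3.3, R 4.3.3 and limma 3.58.1 were used.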

Additional observations from a re-analysis of the deposited data

Results flagged for a closer look

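Gata6 moved in opposite directions in the comparisons of each knockout with its own WT. Its log2 ratio was at least 8.90 in DKO and -4.09 on the array labelled G2KO. Each comparison has 1 array per group, so the difference between them was not tested, and the second sign turns if the labels of that pair are exchanged.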

How the results depend on the processing

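Values of single genes under the alternatives numbered 241. Of these, 218 moved by less than the SD between the arrays labelled WT (1.01 on the log2 scale), 22 by more and 1 reversed. The reversed one was the log2 ratio of Gata6 on the array labelled G2KO, which was 0.10 against the WT of DKO. Many of the 218 could not move. The deposited table repeats the unscaled values, and requiring genes well above background on both arrays only drops genes. Probe choice can change Tbx20 alone, and keeping outlier spots changed no value. The 218 are therefore not independent checks. Of 37 counts of called genes, which include repeated settings too, 30 stayed within 1.5 times the reported count. With genes well above background on both arrays, the count in DKO was 2 and that between WT arrays 1. With no filter and no floor, the count for the array labelled G2KO was 4. At 10-fold, it was 1 for that array and 1 between WT arrays. For the array labelled G2KO it was 0 against the WT of DKO and 0 against the mean of both WT arrays. No share over all genes was computed for the changed filters or for the mean of both WT arrays. In DKO the count lay between 4 and 6 under the other alternatives. At 4-fold, Tbx2 was lost under normexp correction (1.88), and against the array labelled WT of G2KO Tbx20 was lost (-1.88) and Tbx3 was called lower (-2.53). Without scaling, the median over all genes went from -0.17 to 0.33 for the array labelled G2KO and from -0.08 to 0.17 between WT arrays, and under normexp correction it went from 0.03 to 0.14 in DKO. Dim signals limit Tbx1, Tbx2, Tbx4 and Tbx5 to bounds on 2 or 3 of the 4 arrays. No paired analysis was possible because each group has 1 array and the labels carry no replicate numbers.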
